A study of Mus musculus with 4 samples.

Results

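The genes of gluconeogenesis and of glycogen metabolism were followed in the liver of microsomic (M, born small) and control (C) mice. The set holds 10 genes, taken by name from the gene column of the array and not by their values: *Pck1*, *G6pc*, *Fbp1*, *Pcx*, *Ppargc1a*, *Gys2*, *Pygl*, *Gbe1*, *Ppp1r3b* and *Ppp1r3c*. They are 10 of the 36161 gene names on the array and are read by 12 of its 55681 non-control probes, all 12 of which were well above background on all 4 arrays. Total RNA was labelled with Cy3 and measured on Agilent SurePrint G3 Mouse GE 8x60K arrays, with 1 array for each of microsomic females (MF), control females (CF), microsomic males (MM) and control males (CM). By the labels, all 4 samples are whole liver of C57BL/6J mice at embryonic day 20, and litters were normal or microsomic. The study's methods describe newborn C57BL/6 N mice instead, with microsomia set by a weight among the lowest 10% of the colony. The controls there were littermates of the microsomic mice. Age, substrain and the account of the litters thus differ between the sources. No group carries a transgene or received an agent. Whether an array holds RNA of 1 animal or of several is not stated in the sources used here.

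The liver supplies glucose to the blood in 2 ways, by making it from lactate, amino acids and glycerol and by breaking down stored glycogen. Late in gestation the fetal liver lays down glycogen, while the enzymes that release glucose reach full activity around birth, when the supply from the placenta ends. Glucagon and glucocorticoids turn on the genes of glucose release, in part through cyclic AMP and the coactivator PGC-1α, and insulin turns them off. Glycogen synthase is switched on by protein phosphatase 1, which targeting subunits bring to the glycogen particle.

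Values are log2 processed signals scaled so that 0 is the 75th percentile of each array, taken over spots that are not controls. They are compared between arrays for the same probe, never between probes. With 1 array per group a difference between groups carries no replicate error and no p-value. The scatter of a single spot gives a lower limit on the error: among 243 to 245 probes printed at 10 spots, the difference of a spot between arrays had an SD of 0.35 in MF vs CF and 0.40 in MM vs CM on the log2 scale. A gene was called higher or lower when it differed by over 1.5-fold and at least 1 of both arrays read it well above background. The M arrays lie in one column of the slide and the C arrays in the other, so slide column and group cannot be told apart.

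Probes with a difference past 1.5-fold in the comparisons below, *Fbp1* and the second *Gys2* probe aside, are given by 30 of their 60 bases, in the order of the deposited sequence. Capitals mark stretches of 5 bases made of C and T with 3 C or more, here called windows, a feature that moved with the male comparison across the array. Positions are those of the whole probe on mm9 in the array annotation, which does not say whether a probe lies in a coding exon or an untranslated region.
*G6pc* (A_51_P462385, chr11:101238947-101239006, + strand, bases 1 to 30): cagaaatatgaCTCCTTTCCCTagcccaag
*Pck1* (A_66_P121110, chr2:172984307-172984366, + strand, bases 1 to 30): ctaggggcaaataagattgggaggggaaat
*Pcx* (A_55_P2008599, chr19:4621610-4621669, + strand, bases 31 to 60): aaatttgctcaataaaagtggCCTTCCCTT
*Ppargc1a* (A_51_P279038, chr5:51848928-51848987, - strand, bases 1 to 30): CCCCTTCaaatggcagcatttccatgaaga
*Ppargc1a*, second probe (A_55_P2011702, chr5:51846926-51846985, - strand, bases 1 to 30): aggccaatgcagctaattttgacagctgca
*Gys2* (A_55_P1992555, chr6:142371157-142371216, - strand, bases 1 to 30): gagtcaccttactgtaacggtacttttgtt
*Ppp1r3b* (A_55_P1967133, chr8:36451115-36451174, + strand, bases 1 to 30): gtgtgtgtgtgtggtggaagagaatgattt
*Ppp1r3c* (A_52_P30451, chr19:36806457-36806516, - strand, bases 1 to 30): gtagatatgaattattttgaatgtgaactg

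The *G6pc* probe holds 4 such windows, the *Pcx* probe 5, the *Pygl* probe 4, the first *Ppargc1a* probe 3 and the *Fbp1* probe 1, and the other 7 probes hold none. Over all genes well above background on both arrays, those read by a probe with 4 or more windows (12.1% of them) had a median MM minus CM difference of -0.45 and an upper and lower quartile of 0.05 and -1.08, against a median of 0.04 for genes read by a probe with no window. In MF minus CF the medians were -0.06 and -0.12. The part of this feature in the differences of single genes was not tested.

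Among the 9 genes with a probe free of outlier flags, MF vs CF gave 4 higher and 1 lower, and MM vs CM gave 2 higher and 2 lower. *Ppp1r3c*, a subunit that brings protein phosphatase 1 to glycogen, was higher in microsomic liver of both sexes, by 4.74-fold and 5.95-fold. *G6pc*, the catalytic subunit of glucose 6-phosphatase, was 2.58-fold higher in microsomic females and 11.5-fold lower in microsomic males than in the control of the same sex. *Pcx*, pyruvate carboxylase, was 3.35-fold higher in microsomic than in control females. *Ppp1r3b*, the main liver subunit of the same kind as *Ppp1r3c*, lay within 1.5-fold in both comparisons of M with C but was far lower in males than in females.

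For the array as a whole, 19.9% of 25538 genes compared were past 1.5-fold upwards in MF vs CF and 21.1% downwards, and 17.7% of 26315 genes were higher in MM than in CM and 23.1% lower. The counts of 4 and 1 of 9 in females and of 2 and 2 of 9 in males stand beside these shares with no test. The median of the 9 genes was 0.58 in MF minus CF, with 8 of 9 above 0, where all genes well above background on both arrays had a median of -0.11. With quantile normalization the median of the 9 was 0.07, with 7 above 0, and without scaling 0.98. In MM minus CM the median of the 9 genes was -0.02, with 4 of 9 above 0, and that of all genes -0.07. The male median took either sign over the ways of processing, from -0.67 with normexp background correction and quantile normalization to 0.54 without scaling. *Gys2* and *Ppp1r3c* passed 1.5-fold upwards in both sexes, as did 3.19% of 23967 genes compared in both. None of the 9 was lower in both sexes, against 3.8% of genes. *G6pc* was higher in MF and lower in MM, as were 5.81% of genes.

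**Figure D1:**
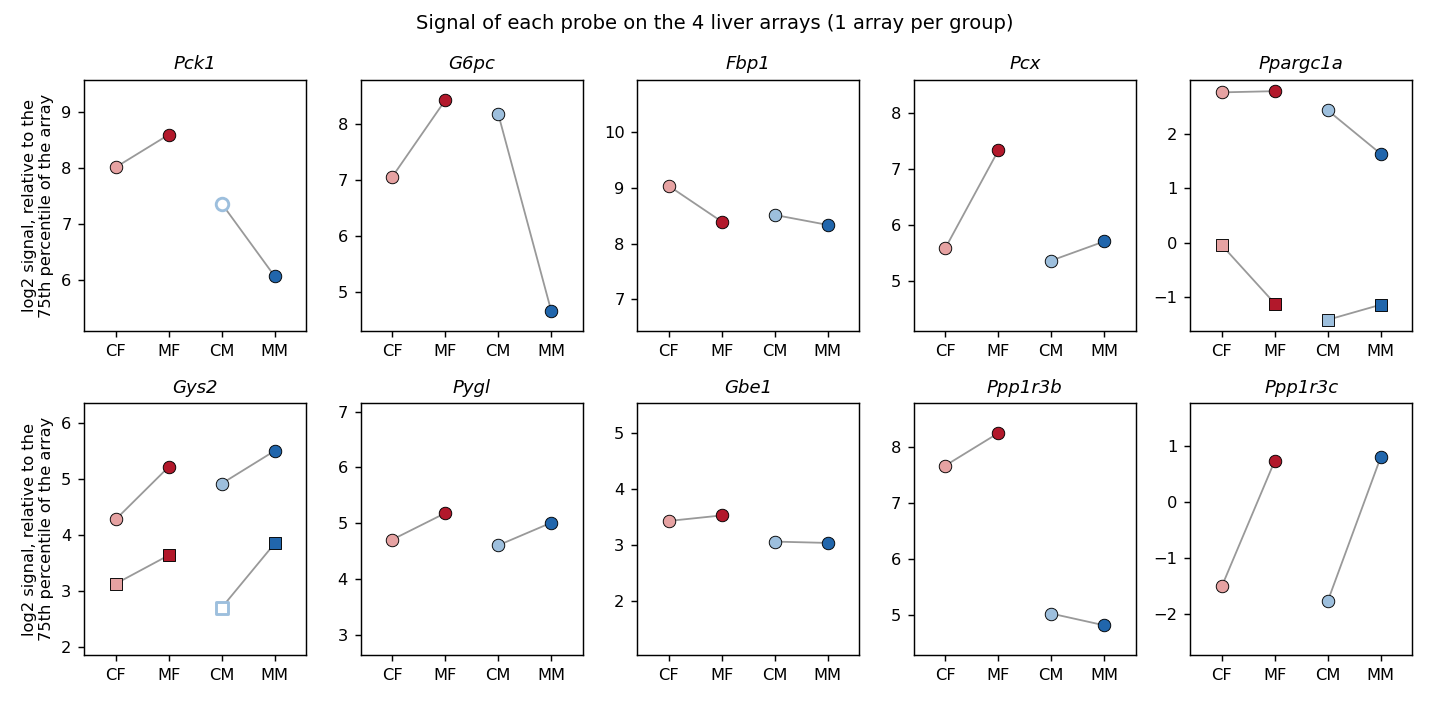
Signal of each probe on the 4 arrays, as log2 relative to the 75th percentile of the array. Each panel is a gene, lines join control and microsomic liver of a sex, squares are the second probes of *Ppargc1a* and *Gys2*, open symbols carry an outlier flag on CM, and the y axes differ in range but span the same number of log2 units in all panels with 1 probe; *G6pc* stands at 4.66 on MM against 7.06 to 8.43 on the others, and *Ppp1r3c* is high on both M arrays.

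Gluconeogenesis starts in the mitochondrion with *Pcx*, which turns pyruvate into oxaloacetate. The log2 signal of *Pcx* was 7.34 in MF, 5.59 in CF, 5.71 in MM and 5.36 in CM. The MF array stood above the other 3, which lay within 0.34 of each other. MF exceeded CF by 1.75 on the log2 scale, a difference that 3.74% of genes reached, and MM exceeded CM by 0.34. The female difference passed 1.5-fold in 12 of 12 ways of processing the arrays, the one reported included, between 1.02 and 2.15. Several of the 12, such as the filters on dim probes and the settings for flagged spots, left the values of the 9 genes unchanged. Counts of this kind, here and below, thus include repeats of the reported value.

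*Pck1* encodes the cytosolic phosphoenolpyruvate carboxykinase, which turns oxaloacetate into phosphoenolpyruvate and is a classic target of glucagon. Its single probe carries the non-uniformity flag of the software on CM, so the gene has no value in the counts above. The log2 signals were 8.60 in MF, 8.02 in CF, 6.06 in MM and 7.36 in CM, the last from the flagged spot. MM was the lowest of the 4 arrays. MF exceeded CF by 0.58, just inside the threshold, and MM lay 1.30 below CM, if the flagged spot is taken at its value. The fold was then 2.46 in favour of CM. Between the unflagged arrays, MM was 5.80-fold lower than MF.

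*Fbp1*, fructose bisphosphatase, removes a phosphate late in the pathway. Its log2 signal was 8.39 in MF, 9.03 in CF, 8.33 in MM and 8.51 in CM (A_51_P474701, chr13:62966175-62966234, - strand). CF was the highest, and the other 3 arrays lay close together. The gene was 1.56-fold lower in MF than in CF, and this call ended with centring on the median (-0.54) and without scaling of the deposited values (-0.24). MM minus CM was -0.18, less than the scatter of a spot, and became positive with centring on the median (0.06), with quantile normalization (0.14) and without scaling (0.38). It was -0.75, past the threshold, with normexp background correction and quantile normalization.

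*G6pc* carries out the last step, in which glucose is freed to leave the cell. The log2 signal was 8.43 in MF, 7.06 in CF, 4.66 in MM and 8.18 in CM. MM was by far the lowest and MF the highest, with CM near MF. MM lay 3.52 below CM on the log2 scale, a position that 0.536% of 26315 genes shared or exceeded, and MF lay 1.37 above CF, which 6.16% of genes reached. The male difference passed the threshold in 12 of 12 ways of processing, from -3.58 to -2.70. The female difference fell inside the threshold with quantile normalization (0.57) and with normexp background correction and quantile normalization (0.33). The female difference less the male difference was 4.89, and 0.542% of 23967 genes had as high a value. The *G6pc* probe holds 4 windows, and genes read by probes with 4 or more had a median of -0.45 in MM minus CM. The place of *G6pc* among those genes was not taken, and the part of this feature in its male difference was not tested.

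*Ppargc1a* encodes PGC-1α, the coactivator that raises transcription of *Pck1* and *G6pc* in fasting. Its brighter probe read 2.79 in MF, 2.76 in CF, 1.64 in MM and 2.43 in CM. MM was again the lowest, 0.80 below CM, or 1.74-fold, and the females did not differ beyond the scatter of a spot (0.02). The second probe, which lies 2 kb away in the annotation, read -1.11 in MF, -0.04 in CF, -1.14 in MM and -1.41 in CM. By that probe MF was 2.10-fold lower than CF and MM minus CM was 0.28, so the probes disagree in both sexes. The male call passed the threshold in 8 of 12 ways of processing and ended with the mean over both probes (-0.26), with centring on the median (-0.56), without scaling (-0.24) and with a trend with position on the array removed (-0.46).

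For *Ppargc1a* and its targets *Pck1* and *G6pc* the 300 bases around their starts are shown, from 250 bases before to 50 after the start in RefSeq on GRCm38.p6. Capitals mark TGACG or its reverse complement CGTCA, the core of the cyclic AMP response element, and TGTTTTG or its reverse complement CAAAACA, the core of the insulin response element; the marked matches do not overlap.
*Pck1* (chr2:173152823-173153122, + strand): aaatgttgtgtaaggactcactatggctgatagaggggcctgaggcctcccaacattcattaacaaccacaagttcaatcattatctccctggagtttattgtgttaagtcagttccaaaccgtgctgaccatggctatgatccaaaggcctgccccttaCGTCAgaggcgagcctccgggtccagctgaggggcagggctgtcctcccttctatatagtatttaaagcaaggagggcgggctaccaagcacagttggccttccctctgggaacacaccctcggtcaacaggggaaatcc
*G6pc* (chr11:101367466-101367765, + strand): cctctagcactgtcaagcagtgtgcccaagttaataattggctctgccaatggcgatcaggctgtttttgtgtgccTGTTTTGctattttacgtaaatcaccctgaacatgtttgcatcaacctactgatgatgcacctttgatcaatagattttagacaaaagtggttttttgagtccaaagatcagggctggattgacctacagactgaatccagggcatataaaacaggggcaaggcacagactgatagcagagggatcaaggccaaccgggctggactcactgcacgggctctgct
*Ppargc1a* (chr5:51567676-51567975, - strand): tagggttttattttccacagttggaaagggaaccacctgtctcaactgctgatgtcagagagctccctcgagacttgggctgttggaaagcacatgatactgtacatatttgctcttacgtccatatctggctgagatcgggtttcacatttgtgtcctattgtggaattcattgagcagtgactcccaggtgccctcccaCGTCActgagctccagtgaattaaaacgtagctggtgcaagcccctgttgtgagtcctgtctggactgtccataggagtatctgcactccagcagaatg

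The *Pck1* window holds CGTCA at -90 and the *Ppargc1a* window at -49, and the *G6pc* window holds TGTTTTG at -174, counted from the start. Over 32851 windows of this length, 20.8% hold the first motif and 6.28% the second on either strand. Of the 10 genes, 8 have a window in the table, and *Pygl* is the other one with a match (CGTCA at -44). The windows of *Fbp1*, *Pcx*, *Gbe1* and *Ppp1r3c* hold neither motif, and those shown were chosen with the matches known. By their first probes *Pck1*, *G6pc* and *Ppargc1a* read lowest on MM. So did *Fbp1* and *Gbe1*, which have no match, and *Ppp1r3b*, which has no window here, but by less than the scatter of a spot. MM minus the next lowest array was -0.06 for *Fbp1* (MF), -0.02 for *Gbe1* (CM) and -0.21 for *Ppp1r3b* (CM). A relation of the motifs to these values was not tested.

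Glycogen is built by *Gys2*, the liver glycogen synthase, and by *Gbe1*, the branching enzyme, and taken apart by *Pygl*, the liver glycogen phosphorylase. *Gys2* read 5.22 in MF, 4.28 in CF, 5.50 in MM and 4.92 in CM. Both M arrays stood above both C arrays. MF exceeded CF by 0.94, or 1.92-fold, and MM exceeded CM by 0.59, just past the threshold. The female call ended with quantile normalization (0.53). The male call ended with that (0.54), with normexp and quantile normalization (0.22) and after removal of a trend with probe GC content (0.40), and the difference stayed above 0 in 12 of 12 ways in both sexes. The second *Gys2* probe (A_55_P2175545, chr6:142371915-142371974, - strand), flagged on CM, read 3.64 in MF, 3.13 in CF, 3.85 in MM and 2.70 in CM. By its values MF exceeded CF by 0.51 and MM exceeded CM by 1.15.

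*Pygl* (A_51_P452779, chr12:71291855-71291914, - strand) read 5.18 in MF, 4.71 in CF, 5.01 in MM and 4.61 in CM. The M arrays were higher by 0.47 and 0.40, inside the threshold and near the scatter of a spot. With normexp and quantile normalization the male difference was -0.62, with centring on the median 0.64 and without scaling 0.96. The female difference ran from 0.07 to 0.88 over the ways of processing. *Gbe1* (A_51_P273684, chr16:70569840-70569899, + strand) read 3.53 in MF, 3.43 in CF, 3.04 in MM and 3.06 in CM, and its differences of 0.10 and -0.02 were smaller than the scatter of a spot. Over the ways of processing the *Gbe1* differences ran from -0.10 to 0.50 in females and from -0.67 to 0.54 in males.

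Of the targeting subunits of protein phosphatase 1, one separated M from C and the other males from females. *Ppp1r3c* encodes PTG, which binds glycogen, the phosphatase and its substrates. It read 0.75 in MF, -1.50 in CF, 0.81 in MM and -1.77 in CM. Both M arrays stood over 2 log2 units above both C arrays, and arrays of the same condition lay within 0.27. The differences of 2.25 in females and 2.57 in males were reached by 2.20% and 0.608% of genes, and passed the threshold in 12 of 12 ways of processing, from 1.84 to 2.65 and from 1.89 to 3.13.

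*Ppp1r3b* encodes GL, the subunit of the liver through which phosphorylase a holds back glycogen synthesis. It read 8.26 in MF, 7.67 in CF, 4.81 in MM and 5.02 in CM. Both females stood far above both males, and M and C of a sex lay near each other. MF exceeded CF by 0.58 (just inside the threshold), MM minus CM was -0.21, and both differences took either sign over the ways of processing, from -0.18 to 0.98 and from -0.78 to 0.35.

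**Figure D2:**
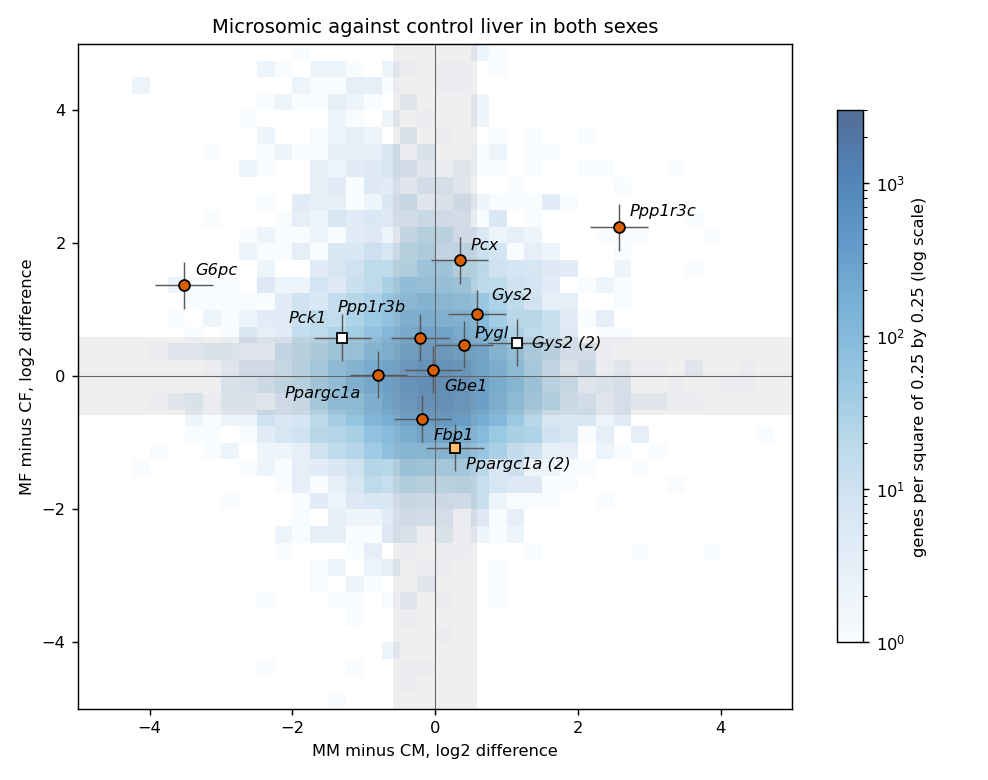
Microsomic minus control difference in females (y) and males (x), both as log2 differences; blue squares count genes that passed the background filter on every array and differ by under 5, and grey bands mark 1.5-fold. Orange circles are the 9 genes counted, the orange square is the second *Ppargc1a* probe, open squares are the flagged *Pck1* and second *Gys2* probes, and bars are the SD of a single spot (0.35 and 0.40); *Ppp1r3c* lies at the upper right and *G6pc* at the left.

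The sexes were also compared within each condition, using the same 4 arrays as the comparisons of M with C. In control liver 2 of the 9 genes were higher in CM than in CF and 1 lower, where 26.6% of genes were higher and 19.7% lower. *Ppp1r3b* was 6.27-fold lower in CM than in CF, a place that 0.801% of genes shared or exceeded. *G6pc* was 2.17-fold higher in CM and *Gys2* 1.56-fold higher, the latter call ending with centring on the median (0.22) and without scaling (0.53). In microsomic liver none of the 9 was higher in MM than in MF and 4 were lower, where 28.9% of genes were higher and 20.5% lower. *G6pc* was 13.7-fold lower in MM than in MF, *Ppp1r3b* 10.9-fold, *Pcx* 3.09-fold and *Ppargc1a* 2.22-fold, and the *Pcx* call ended with normexp and quantile normalization (-0.36). The *Ppp1r3b* differences passed the threshold in 12 of 12 ways of processing, from -3.07 to -1.68 in CM minus CF and from -3.72 to -2.73 in MM minus MF. The order of *G6pc* between the sexes was thus opposite in control and microsomic liver.

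A change common to both sexes was tested with limma on all 4 arrays with terms for condition and sex, fitted to the 19303 genes that passed the background filter on every array. At a Benjamini-Hochberg adjusted p of 0.05 limma called 0 of the 9 genes and 0% of all genes, and at an unadjusted p under 0.05 it held 1 of the 9 (*Ppp1r3c*) and 4.42% of all genes. For *Ppp1r3c* limma gave a mean M minus C difference of 2.41 with a standard error of 0.42 and an adjusted p of 0.964. The adjusted p in limma was 0.0434 with the deposited values without scaling. That setting raised the median difference of all genes by 0.38 in MF vs CF and by 0.50 in MM vs CM. For *Pcx* limma gave 1.04 with a standard error of 0.49, and for *Gys2* 0.76 with a standard error of 0.42, both with an adjusted p of 0.995. For *G6pc*, whose differences had opposite signs in the sexes, it gave -1.08 with a standard error of 0.99. *Pck1*, fitted with its flagged spot kept, had -0.36 with a standard error of 0.57 and an adjusted p of 0.994 in limma. The fit has 1 residual degree of freedom per gene.

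**Figure D3:**
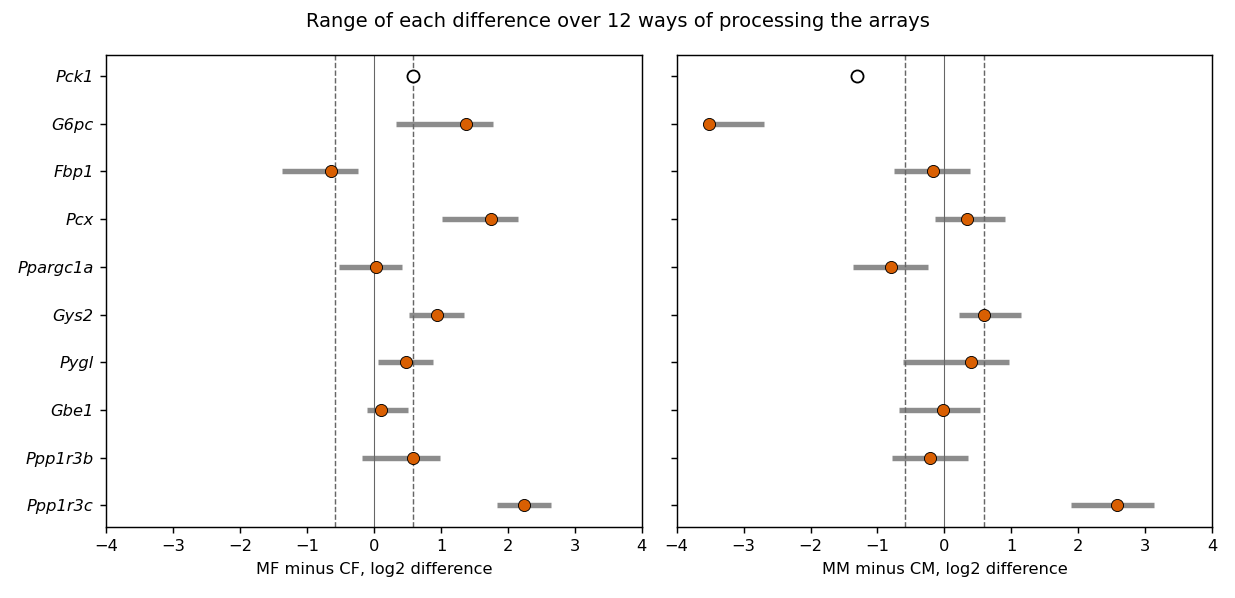
Microsomic minus control log2 difference of each gene in females and males. Points are the values reported, grey bars run from the lowest to the highest value over 12 ways of processing, open points are *Pck1* with its spot kept (no bar), and dashed lines mark 1.5-fold; the bars of *Ppp1r3c* in both sexes, *Pcx* in females and *G6pc* in males stay outside the dashed lines.

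Of the other enzymes of gluconeogenesis and glucose export, 20 of 23 listed were compared. In MF vs CF 8 were higher and 3 lower (median 0.20), and in MM vs CM 4 were higher and 1 lower (median 0.23). For this list and those below, the shares over all genes were 19.9% higher and 21.1% lower in females. In males they were 17.7% higher and 23.1% lower, and no list was tested against them. *Slc37a4*, the transporter that brings glucose 6-phosphate to *G6pc*, read 5.59 in MF, 5.82 in CF, 5.62 in MM and 5.90 in CM, so it did not share the spread of *G6pc*. *Pck2*, the mitochondrial counterpart of *Pck1*, read -1.83, -1.60, -2.60 and -2.40 in the same order and differed by -0.23 and -0.20. *Got1*, the cytosolic aspartate aminotransferase, was lower in M of both sexes, by 3.57-fold and 2.90-fold. *Eno1* (enolase) and *Gpi1* (glucose phosphate isomerase) were 3.26-fold and 2.36-fold higher in MF. *Gyk*, glycerol kinase, was 2.44-fold higher in MM. *Gpt*, alanine aminotransferase, was 1.64-fold lower in MF and 1.78-fold higher in MM.

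Of 18 regulators of gluconeogenic genes, 7 were higher and 3 lower in MF than in CF (median 0.17), and 3 were higher and 3 lower in MM than in CM (median 0.16). *Cebpa*, a transcription factor of hepatocytes, was 4.04-fold higher in MF. *Nr4a1*, an orphan nuclear receptor induced by cyclic AMP, was higher by 1.81 on the log2 scale in MF, and *Sik1*, a kinase that restrains the CREB coactivators and is itself induced by cyclic AMP, was 2.12-fold lower in MM. *Esrra*, a nuclear receptor that works with PGC-1α, was 2.26-fold lower in MM. *Hnf4a*, also a hepatocyte marker, and *Foxa2*, factors of hepatocyte identity, were 2.01-fold and 1.91-fold higher in MM. In MF *Hnf4a* was 1.56-fold higher and *Foxa2* 1.78-fold lower. *Nr0b2* and *Creb1* were 1.84-fold and 1.82-fold lower in MF. In both sexes the list thus held genes on either side, as the array did.

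Of the other genes of glycogen synthesis and breakdown, 18 were compared in females and 19 in males. In females 4 were higher and 4 lower (median -0.11), and in males 0 were higher and 4 lower (median 0.03). Over all genes 19.9% were higher and 21.1% lower in females, and 17.7% and 23.1% in males. *Gys1*, the glycogen synthase of muscle, was 1.78-fold higher in MF and 1.51-fold lower in MM. The phosphorylase kinase subunit *Phkb* was 2.11-fold lower in MF, and *Phka1* 1.72-fold lower in MM. *Pygm*, the muscle phosphorylase, was 1.87-fold lower in MF.

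Among the catalytic and other targeting subunits of protein phosphatase 1, 1 was higher and 4 lower of 7 compared in females (median -0.65), and 1 higher and 1 lower of 6 in males (median 0.23). *Ppp1r3g*, a further glycogen-targeting subunit, read 5.42 in MF, 3.02 in CF, -0.14 in MM and 1.94 in CM. MF exceeded CF 5.27-fold and MM lay 4.21-fold under CM, opposite in the sexes as *G6pc* was. *Ppp1r3d* was 1.74-fold lower in MF and 1.77-fold higher in MM, and *Ppp1r3f* was 2.05-fold lower in MF. None of these others was called higher in both sexes, as *Ppp1r3c* and 3.19% of all genes compared in both were. With 6 compared in males, this does not set *Ppp1r3c* apart.

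Of 12 other genes of the liver that respond to fasting, glucagon or glucocorticoids, 3 were higher and 5 lower in MF than in CF (median 0.11), and 4 higher and 5 lower in MM than in CM (median -0.16). *Sds*, serine dehydratase, an amino acid enzyme of fasting, was 11.3-fold lower in MF and 5.10-fold lower in MM. *Pdk4*, which holds back pyruvate oxidation, was 3.28-fold lower in MM and 1.99-fold lower in MF. *Cpt1a*, the gate of fatty acid entry into mitochondria, was 3.39-fold lower in MF. *Txnip*, a gene induced by glucose, was 5.27-fold higher in MF, and *Angptl4* 1.71-fold higher. The glucocorticoid targets *Fkbp5* and *Tsc22d3* were 2.46-fold and 2.03-fold higher in MM.

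**Figure D4:**
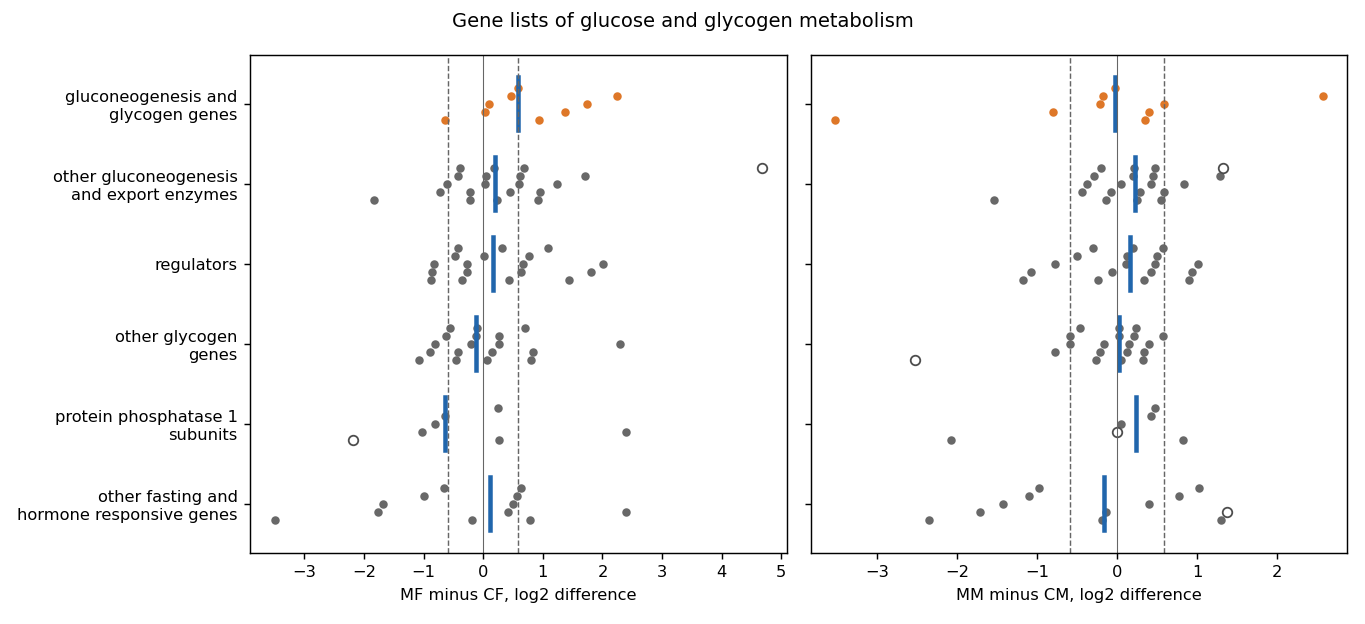
Microsomic minus control log2 difference of each compared gene of 6 lists, in females and males. Orange points are the 9 genes counted, grey points the genes of the other lists, open points lower bounds, blue bars list medians and dashed lines 1.5-fold; the median of the 9 genes is 0.58 in females, and 0.07 if the arrays are quantile normalized, and -0.02 in males.

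The liver label was checked against marker genes, and RNA of other organs was looked for. All 10 hepatocyte markers passed the background filter on every array, with *Alb* at 10.62 in MF, 10.40 in CF, 9.63 in MM and 9.96 in CM and *Afp* at 9.46, 8.70, 8.59 and 9.38. In females 2 hepatocyte markers were higher in M and 0 lower (median 0.21), and in males 2 were higher and 6 lower (median -0.64). The 2 higher in males were *Hnf4a* (1.01) and *Apob* (0.97). The cause of the lower values on MM and their part in the lower *G6pc* there were not tested. Fewer hepatocytes and less RNA per hepatocyte cannot be told apart in bulk tissue. A dependence of MM minus CM on the signal level of a probe was not tested. *Hba-a1* and *Hbb-b1*, the globins of the red cell precursors that fetal liver holds, differed by -0.54 and -0.68 in females and by -0.46 and -0.86 in males, and the erythroid list of 10 had medians of -0.52 and -0.21. Of 11 granulocyte and macrophage markers, 10 were higher in MF than in CF (median 0.93), and 1 was higher and 2 lower in MM than in CM. The 2 lower in males were *S100a8* (-0.72) and *S100a9* (-0.68), which read 8.02 and 9.24 on CM.

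Of 11 intestinal epithelium markers compared in females, 10 were higher in MF than in CF, 4 of them as lower bounds, with a median of 4.38. Of 8 compared in males, 2 were higher and 4 lower in MM than in CM, with a median of -0.38. The summed level of the list was 6.95 in MF, 4.28 in CF, 6.75 in MM and 4.18 in CM. *Alpi*, *Cdh17* and *Cdx2*, which define that epithelium, were well above background on MF and not on the other 3 arrays, while *Apoa4*, also made by liver, and *Fabp2* were high on MM. The intestine also expresses *G6pc* and *Pck1*, and the part of its RNA in the higher values on MF was not tested. Of 10 skeletal and heart muscle markers, 6 were lower in MF than in CF, with a median of -6.36 and summed levels of 0.21 in MF, 6.86 in CF, 0.67 in MM and 1.37 in CM. Muscle expresses *Gys1*, *Pygm* and *Ppp1r3c*. The pancreas list had medians of 0.33 and -0.72, and the kidney list of 0.10 and -0.58, in females and males. For *Ppp1r3c*, *Gys2*, *Gys1*, *Pygm*, *Pcx* and the sex difference of *Ppp1r3b*, the part of RNA of other cell types was not tested.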

How the data were processed

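Liver RNA of 4 samples was hybridized, 1 array each, by the authors and scanned with Agilent Feature Extraction 10.7.3.1. The processed signal deposited by the authors is an intensity on a linear scale, background-subtracted and detrended by the software and not scaled between arrays; their table of values equals it in all 62976 spots (relative tolerance 1e-06). Here its log2 was used, minus that array's own 75th percentile, a signal of 628 to 925, over spots that are not controls. The 1754 spots that any array flagged as a non-uniformity or population outlier were removed. MF had 916 non-uniform and 22 saturated spots, against 182 and 1 on CF, 130 and 0 on MM, and 136 and 1 on CM. Spots of a probe were averaged and a gene read by its brightest probe, which left 35577 genes. Well above background were 56.1% to 65.3% of spots, and the number of arrays limits the precision. Where 1 array of a pair was dim, the difference was a lower bound against the lowest signal well above background there. limma 3.58.1 in R 4.3.3 (lmFit, eBayes, Benjamini-Hochberg) was tested on simulated data. Python 3.11.15 with numpy 2.4.6 and pandas 2.3.3 did the rest.

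Beside the 10 genes with all their probes, the text names from each pathway list the 2 largest rises and 2 largest falls past 1.5-fold in each comparison of M with C that are not bounds, with *Slc37a4* and *Pck2* always and some genes not reported here; further intestinal markers and repeat values of named genes were chosen after their values were seen. Genes and lists were chosen with earlier results of these data known. *Gk*, *Gyg1* and *Adgre1* are no gene names on the array, and *Mdh2* and *Pgm2* had flagged probes alone. Alternatives were other scalings (median, quantile, none), normexp (offset 50) with quantile normalization, no or a stricter filter on dim probes, the mean over probes, flagged spots kept, trends with GC content or position removed, a 2-fold threshold and, for limma, an intensity trend, no term for sex and the threshold of the methods; reading the flag on the arrays of a pair alone was added after seeing the data. The study's methods give 3 experiments per group, and 1 array of each group is used here. Promoter windows came from a RefSeq table of GRCm38.p6; probe positions are on mm9.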

Additional observations from a re-analysis of the deposited data

Results flagged for a closer look

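Microsomic minus control differences ran in opposite directions in the sexes, past 1.5-fold in both, for *G6pc* and 9 of the genes named from the pathway lists. Each group is 1 array, so the difference between the sexes was not tested. Of all genes, 5.81% were higher in MF vs CF and lower in MM vs CM. The share with the turned order, as in *Foxa2*, *Ppp1r3d* and *Gpt*, was not taken. The 9 come from genes named for large differences, so their count has no array-wide share to stand beside.

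The female less the male log2 difference was 4.89 for *G6pc* (1.37 in females, -3.52 in males), 4.47 for *Ppp1r3g* (2.40 and -2.07) and 3.82 for *Txnip* (2.40 and -1.42). It was 2.58 for *Nr4a1* (1.81 and -0.78) and 2.53 for *Sik1* (1.45 and -1.08). It was 1.87 for *Angptl4* (0.78 and -1.10) and 1.42 for *Gys1* (0.83 and -0.59). The order was turned for *Foxa2* at -1.76 (-0.83 and 0.93), *Ppp1r3d* at -1.63 (-0.80 and 0.82) and *Gpt* at -1.55 (-0.72 and 0.83).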

How the results depend on the processing

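The count of genes past 1.5-fold in MF vs CF was 5 and became 3 with a 2-fold threshold and 3 with quantile normalization; with the other settings it lay between 4 and 6. In MM vs CM it was 4 and became 2 with a 2-fold threshold and 7 with normexp correction and quantile normalization (1 higher, 6 lower), and lay between 3 and 5 otherwise. limma called 0 of the 9 genes, and 1 with the deposited values without scaling, where it called 10 of all 19303 genes; an unadjusted p below 0.01 with over 1.5-fold also held 1 of the 9, and 163 of all genes. The median of the 9 genes moved from 0.58 to 0.07 with quantile normalization and to 0.98 without scaling in MF vs CF, and from -0.02 to between -0.67 and 0.54 in MM vs CM. In CM vs CF it moved from -0.27 to between -0.69 and 0.55, and in MM vs MF from -0.49 to between -0.77 and -0.42. With *Pck1* added from its flagged spot, the median of 10 genes in MM vs MF was -0.82. Of single values of the genes under the alternatives, 161 moved by less than the scatter of a spot and 38 by more, and no called difference changed sign. Part of the 161 could not move. The filters on dim probes and the settings for flagged spots left the values of the 9 genes unchanged. The mean over probes changed *Ppargc1a* alone. The share of higher among all calls moved from 48.5% to 57.1% (median centring) and 79.6% (no scaling) in MF vs CF, and from 43.4% to 61.0% and 78.4% in MM vs CM. In CM vs CF it moved from 57.5% to 30.5%, and in MM vs MF from 58.5% to 38.5%, with median centring. Without scaling the median of all genes moved by 0.38 in MF vs CF and 0.50 in MM vs CM. The cause was not tested. No paired analysis was possible because each group is 1 array, and for the same reason no replicate could be left out. All 12 probes were well above background on all 4 arrays and none was saturated.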
